A study of Mus musculus with 6 samples.

Results

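The immediate early genes are a small set of genes that cells switch on within minutes of a stimulus. The 10 genes examined here, Fos, Fosb, Jun, Junb, Egr1, Egr2, Atf3, Ier2, Ier3 and Nr4a1, were picked by name from the 54532 genes of the deposited count table. All 10 were among the 18689 genes that reached at least 0.5 CPM (counts scaled to a fixed library size) in at least 1 library and were tested.

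The RNA came from whole lungs of untreated C57BL/6J mice at 2 months, perfused with cold PBS to remove blood. There were 3 wild-type (WT) and 3 ISM1-/- libraries. The WT mice were purchased, whereas the ISM1-/- line, which lacks the secreted protein isthmin-1 by design, was bred in-house on the same background, and so a difference of genotype and a difference of source cannot be told apart. The labels give no batch for the libraries. The comparison asks how lungs with and without ISM1 differ at rest.

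Total counts were 37606133 to 42345042 per library. The targeted gene, Ism1, averaged 78.8 ± 2.88 CPM in WT libraries (SD, n = 3) against 69.0 ± 5.72 CPM where the label is ISM1-/- (SD, n = 3), or 87.6% of the WT mean (log2 fold change −0.19, SE 0.0709, edgeR adjusted p = 0.217). The genotype therefore rests on the labels. Lung epithelial, endothelial, fibroblast and macrophage markers were present in every library. In whole-tissue RNA, fewer cells of a type and less RNA per cell cannot be told apart.

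Immediate early genes need no new protein for their induction, because the factors that switch them on, such as SRF at CArG boxes and CREB at cAMP response elements, already sit in the cell and are activated by MAP kinase and cAMP signalling. Their RNAs are short-lived, so a pulse rises and decays rapidly. Most encode transcription factors. FOS and JUN proteins pair to form AP-1, EGR proteins are zinc finger factors, NR4A1 is an orphan nuclear receptor, and ATF3 is a stress-induced partner and repressor. In lung they respond to stretch, injury, cytokines and inhaled agents, and they are also known to be induced by the handling and dissociation of tissue.

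The sequences just upstream of 4 of these genes are shown because Fos, Egr2 and Nr4a1 varied strongly among libraries of one genotype, while Jun, from the same AP-1 family, did not. Each is the 150 bases before a RefSeq transcript start (GRCm38.p6), written 5′ to 3′ on the gene's strand. Capitals mark the TATA box (TATAAA) in Fos and the CArG box in Egr2.
Fos, chr12:85473740-85473889, plus strand: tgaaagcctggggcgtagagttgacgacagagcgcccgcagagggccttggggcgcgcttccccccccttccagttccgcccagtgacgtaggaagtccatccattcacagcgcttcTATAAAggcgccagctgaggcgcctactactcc
Egr2, chr10:67537719-67537868, plus strand: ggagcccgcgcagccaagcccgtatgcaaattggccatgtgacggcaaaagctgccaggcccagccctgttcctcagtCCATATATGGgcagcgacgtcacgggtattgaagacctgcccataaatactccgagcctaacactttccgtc
Nr4a1, chr15:101266696-101266845, plus strand: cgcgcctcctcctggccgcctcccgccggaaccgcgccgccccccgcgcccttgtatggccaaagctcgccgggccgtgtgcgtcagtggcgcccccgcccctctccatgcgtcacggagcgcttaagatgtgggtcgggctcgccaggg
Jun, chr4:95052223-95052372, minus strand: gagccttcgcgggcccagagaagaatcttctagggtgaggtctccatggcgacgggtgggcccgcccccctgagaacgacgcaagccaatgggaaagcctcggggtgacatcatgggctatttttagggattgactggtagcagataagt

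In the longer windows used for the motif search, 250 bases before to 50 bases after each start, 8 of the 10 genes matched the RefSeq table, with 12 windows among 32851 for all genes. Egr1 and Ier2 had no window. The TATA box, searched on the gene's strand, lay 33 to 28 bases before the Fos start and was found in 8.32% of all windows. A match in Junb began at the start base itself. The CArG box, searched on both strands, was present in 4 windows of Egr2 and in 1.63% of all windows. Some of these Egr2 windows overlap and share the same box, and another Egr2 window held none. None of the 12 windows held the full cAMP response element TGACGTCA (1.79% of all windows), the AP-1 site TGACTCA (5.20%) or the EGR site GCGTGGGCG (0.612%), each searched on both strands. These matches describe the letters in the windows only.

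Between genotypes, 1 of the 10 genes passed the test. Ier3 was higher in the ISM1-/- libraries, whereas no change was detected in the other 9 genes, most of which differed widely within each genotype. By edgeR's quasi-likelihood test at an adjusted p under 0.1, 882 of the 18689 genes tested were called (4.72%), 258 higher (1.38%) and 624 lower (3.34%) in ISM1-/-. With at least a 2-fold change the share was 0.567%, and 0 of the 10 genes passed by edgeR, DESeq2 or limma, with 1 of them at an unadjusted p under 0.05 in edgeR. The genotypes did not overlap in 1 of the 10 genes, against 21.6% of all genes tested. Of the 10 genes, 3 had a higher and 7 a lower fitted value in ISM1-/-. Their median log2 fold change was −0.07, beside 0.00430 for all genes tested. It became 0.26 when WT replicate 1 was left out, −0.26 without ISM1-/- replicate 2 and −0.21 without WT replicate 3.

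**Figure D1:**
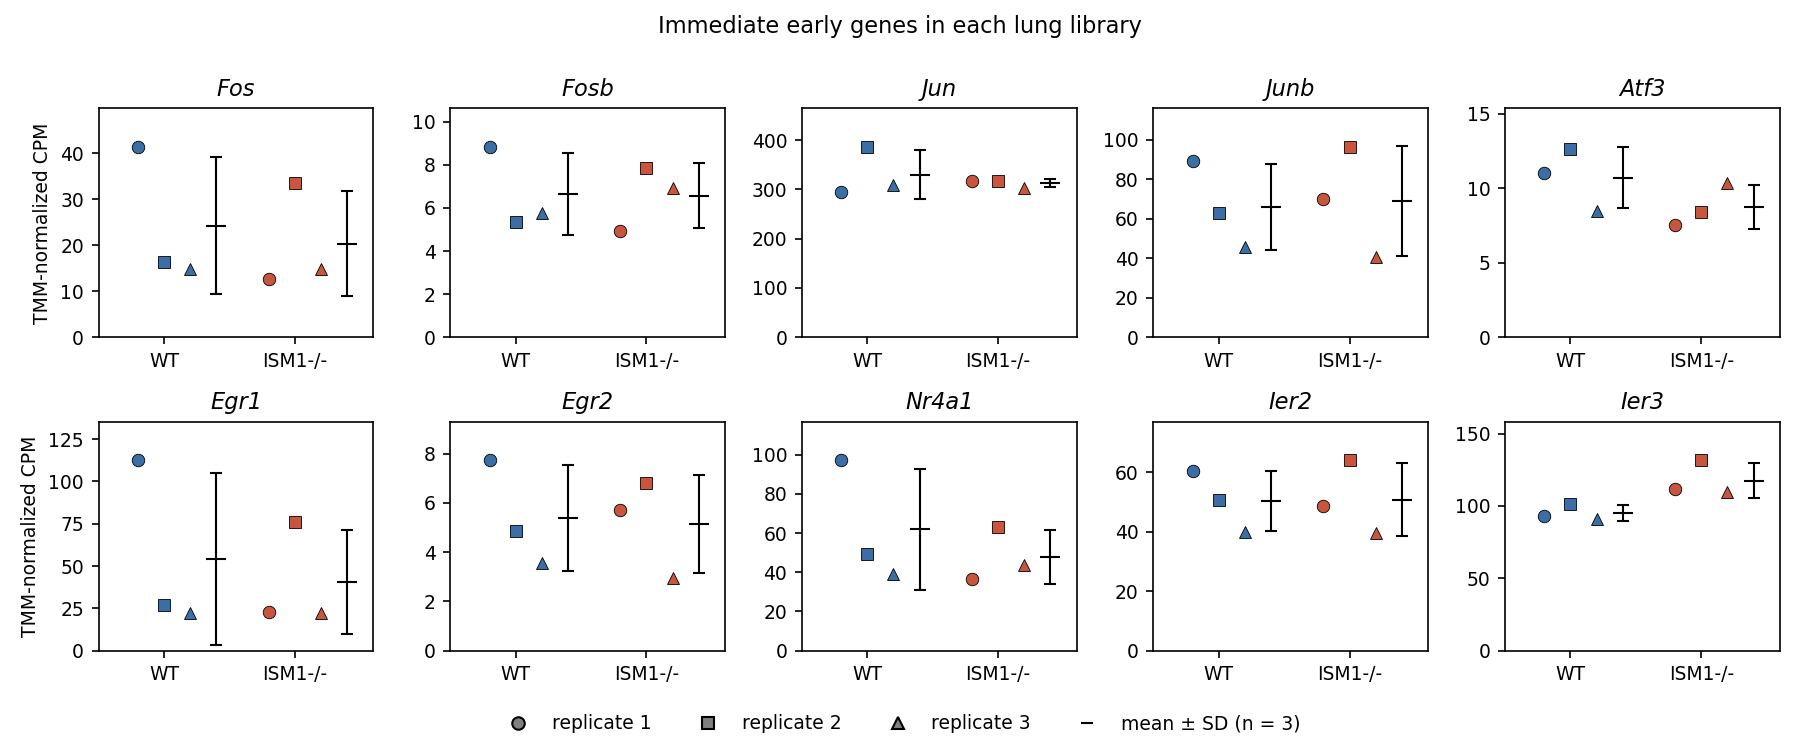
Level of each immediate early gene in TMM-normalized CPM (vertical axes start at 0) in the 3 WT (blue) and 3 ISM1-/- (red) libraries, with marker shape giving the replicate number and black bars the mean ± SD (n = 3). For Fos and Egr1, 1 library of each genotype stood above the other 4, and only for Ier3 did the genotypes not overlap.

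Per transcript length, in FPKM averaged over the 6 libraries, Jun was the most abundant of the 10 (100.7), followed by Ier3 (93.9), Junb (58.7), Nr4a1 (35.0), Ier2 (33.2), Fos (20.4), Egr1 (12.6), Atf3 (6.62), Egr2 (3.37) and Fosb (2.02). The ranges over libraries overlapped between neighbours in this order, except between Atf3 (5.13 to 8.60 FPKM) and Egr2. Jun spanned 92.8 to 121 FPKM and Ier3 80.6 to 117 FPKM. Egr1 spanned 5.78 to 30.0 FPKM and Fos 11.7 to 38.1 FPKM. Fosb and Egr2, at the bottom of the order, also overlapped, with 1.51 to 2.72 and 1.85 to 4.96 FPKM.

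Fos (ENSMUSG00000021250, chromosome 12, 85473890 to 85477273, plus strand, GRCm38), the prototype AP-1 subunit, had 41.4, 16.4 and 14.8 CPM in WT replicates 1, 2 and 3. In the ISM1-/- replicates it had 12.7, 33.4 and 14.9 CPM. One library of each genotype was high, WT replicate 1 and ISM1-/- replicate 2, and the other 4 lay close together between 12.7 and 16.4 CPM. The log2 fold change was −0.25 (SE 0.426, adjusted p = 0.842), with a 95% interval from −1.20 to 0.70, and it turned to 0.38 without WT replicate 1. Behind these values were 542 to 1563 reads per library.

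Fosb (chromosome 7, 19302696 to 19310051, minus strand), a FOS relative that also pairs with JUN proteins, was the least abundant of the 10 per length. It had 8.85, 5.34 and 5.79 CPM in WT and 7.87 CPM in ISM1-/- replicate 2, with 4.91 and 6.94 CPM in replicates 1 and 3. The same 2 libraries were the highest of their genotype, with the groups overlapping throughout. Its log2 fold change was −0.02 (SE 0.219, adjusted p = 0.983, 95% interval −0.51 to 0.47). It was 0.24 without WT replicate 1.

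Junb (chromosome 8, 84974484 to 84978718, minus strand), a JUN family member that often restrains JUN-driven transcription, had 89.2, 62.8 and 45.6 CPM in WT and 70.0, 96.5 and 40.7 CPM in ISM1-/-. Here the libraries spread in steps rather than as one high value. Replicate 3 was the lowest in both genotypes, and the highest libraries were again WT replicate 1 and ISM1-/- replicate 2. The log2 fold change was 0.07 (SE 0.292, adjusted p = 0.947, 95% interval −0.58 to 0.72), and it was −0.14 without WT replicate 3 and −0.25 without ISM1-/- replicate 2. Junb overlaps the opposite-strand antioxidant gene Prdx2, which had 3053 to 3863 reads per library and a log2 fold change of 0.05. The libraries were directional, but the strand setting of the counting is not given in the sources used here, so the share of Prdx2 reads in the Junb count is uncertain.

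Jun (chromosome 4, 95049034 to 95052222, minus strand), the other core AP-1 subunit, behaved differently. It had 295, 387 and 308 CPM in WT and 317, 317 and 303 CPM in ISM1-/-, so WT replicate 1 was the lowest library rather than the highest. In the edgeR fit it differed by −0.08 on the log2 scale (SE 0.0941, adjusted p = 0.755), and its 95% interval of −0.29 to 0.13 was narrow beside those of the FOS and EGR genes. It was 0.052 without WT replicate 2. An antisense RNA, Junos, overlaps Jun and had 605 to 833 reads per library against 11130 to 16074 for Jun.

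Atf3 (chromosome 1, 191170296 to 191218039, minus strand), which is induced by stress signals and can repress inflammatory genes, had 11.0, 12.6 and 8.50 CPM in WT and 7.50, 8.37 and 10.3 CPM in ISM1-/-. The highest libraries were WT replicate 2 and ISM1-/- replicate 3, a different pair from the FOS genes. Its fitted difference was −0.30 on the log2 scale (SE 0.162, adjusted p = 0.428, 95% interval −0.66 to 0.07). It kept its sign in the 6 fits that left out 1 library each, between −0.44 and −0.16, none of which called it.

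Egr1 (chromosome 18, 34859823 to 34864984, plus strand), a zinc finger factor induced by growth factors, stretch and hypoxia, varied more than any other of the 10. In WT it had 113, 26.9 and 22.3 CPM, a 5.04-fold range within 1 genotype. The ISM1-/- libraries had 23.1, 75.9 and 22.1 CPM, a 3.44-fold range. As with Fos, WT replicate 1 and ISM1-/- replicate 2 were high, and the other 4 libraries lay between 22.1 and 26.9 CPM. The fitted log2 fold change was −0.42 (SE 0.624, adjusted p = 0.816), with a 95% interval of −1.81 to 0.97 that leaves room for a change of more than 2-fold downward. It ranged from −1.25 without ISM1-/- replicate 2 to 0.71 without WT replicate 1.

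Egr2 (chromosome 10, 67535475 to 67542188, plus strand), a relative known from myelinating glia and lymphocytes and the gene with the CArG box printed above, had 7.74, 4.86 and 3.57 CPM in WT. In ISM1-/- it had 5.71, 6.79 and 2.94 CPM. The order of the libraries within each genotype was that of Junb, with replicate 3 lowest. For Egr2 the log2 fold change was −0.06 (SE 0.322, adjusted p = 0.954, 95% interval −0.78 to 0.66). It turned to 0.29 without WT replicate 1 and to 0.22 without ISM1-/- replicate 3.

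Nr4a1 (chromosome 15, 101254269 to 101274795, plus strand), an orphan nuclear receptor that limits inflammatory gene expression in macrophages and marks antigen receptor signalling in lymphocytes, had 97.2, 49.3 and 38.9 CPM in WT and 36.6, 62.9 and 43.6 CPM in ISM1-/-. WT replicate 1 and ISM1-/- replicate 2 were the highest of their genotypes, and the groups overlapped. The log2 fold change was −0.37 (SE 0.303, adjusted p = 0.617, 95% interval −1.05 to 0.30), and it was 0.11 without WT replicate 1.

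Ier2 (chromosome 8, 84661331 to 84662852, minus strand), a small nuclear protein induced by growth factors, had 60.2, 50.6 and 39.9 CPM in WT and 48.5, 64.0 and 39.6 CPM in ISM1-/-. The order again placed WT replicate 1 and ISM1-/- replicate 2 on top and replicate 3 at the bottom of each genotype. The log2 fold change was 0.01 (SE 0.177, adjusted p = 0.985, 95% interval −0.38 to 0.41), and it was −0.13 without WT replicate 3 and −0.19 without ISM1-/- replicate 2.

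Ier3 (chromosome 17, 35821684 to 35822923, plus strand), a stress- and NF-κB-induced gene that modulates cell survival, was the exception. It had 92.7, 101 and 90.8 CPM in WT and 111, 132 and 110 CPM in ISM1-/-, so that the lowest ISM1-/- library lay above the highest WT library. The means were 94.9 ± 5.53 CPM and 118 ± 12.3 CPM (SD, n = 3 each). Expression rose 1.24-fold (95% interval 1.09 to 1.40), a log2 fold change of 0.31 (SE 0.0805, adjusted p = 0.0849). The direction held in the 6 fits that left out 1 library each, from 0.22 to 0.36 on the log2 scale, but the call held only without ISM1-/- replicate 3, and adjusted p ranged from 0.0455 to 0.238 over them. DESeq2 gave an adjusted p of 0.0129, whereas limma on log2(FPKM + 1) gave 0.132. Neutrophil markers also differed between the genotypes. Of 7 listed, 6 were tested, and all 6 were higher in ISM1-/-, of which 4 were called. The summed level of these markers was 51.4 to 67.0 CPM in WT and 79.8 to 140.3 CPM in ISM1-/-, and none was at 0 in all libraries. Their part in the Ier3 difference was not tested.

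**Figure D2:**
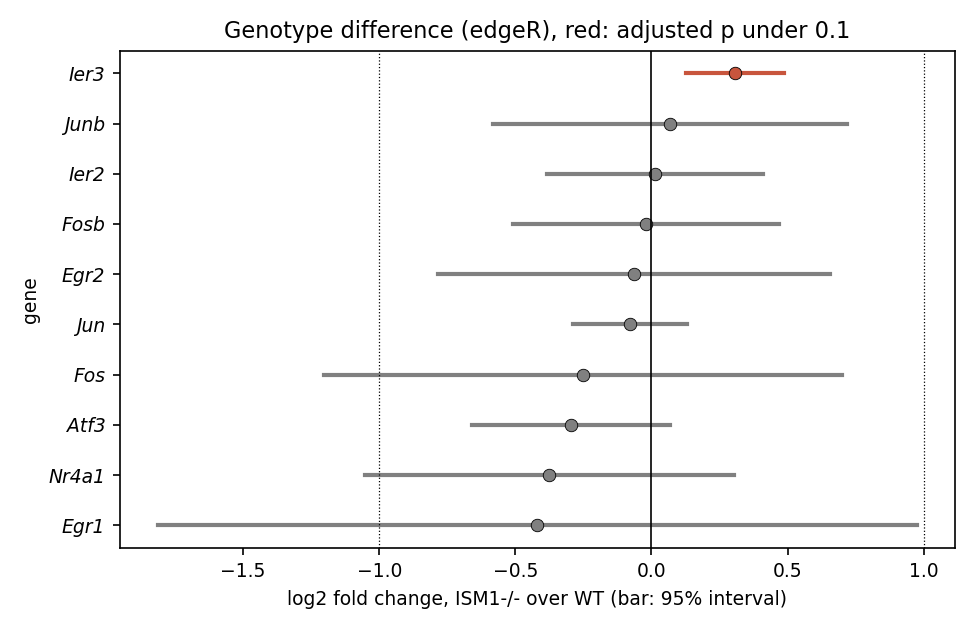
Log2 fold change (ISM1-/- over WT, horizontal axis) of the 10 immediate early genes from the edgeR fit, with 95% intervals as bars and dotted lines at a 2-fold change. Ier3 (red, adjusted p = 0.0849) is the only gene whose interval excludes 0, while those of Egr1, Fos and Nr4a1 extend past a 2-fold decrease.

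The intervals were wide where libraries of one genotype differed. The pooled within-genotype SD of log2 CPM had a median of 0.465 over the 10 genes, against 0.129 over all genes tested and 0.0957 over the 12494 genes averaging 5 CPM or more. All 10 genes were above the median of that last group, from Ier3 (0.119) and Jun (0.151) to Fos (0.782) and Egr1 (1.15). Of the 12494 genes, 0.128% had a larger SD than Fos and 0.0400% a larger SD than Egr1, and over all genes tested, many of them with few reads, the shares were 1.24% and 0.289%. The median over the 10 genes was 0.335 without WT replicate 1. It was 0.442 without ISM1-/- replicate 2, 0.429 without ISM1-/- replicate 3 and at most 0.504 when any other library was left out.

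**Figure D3:**
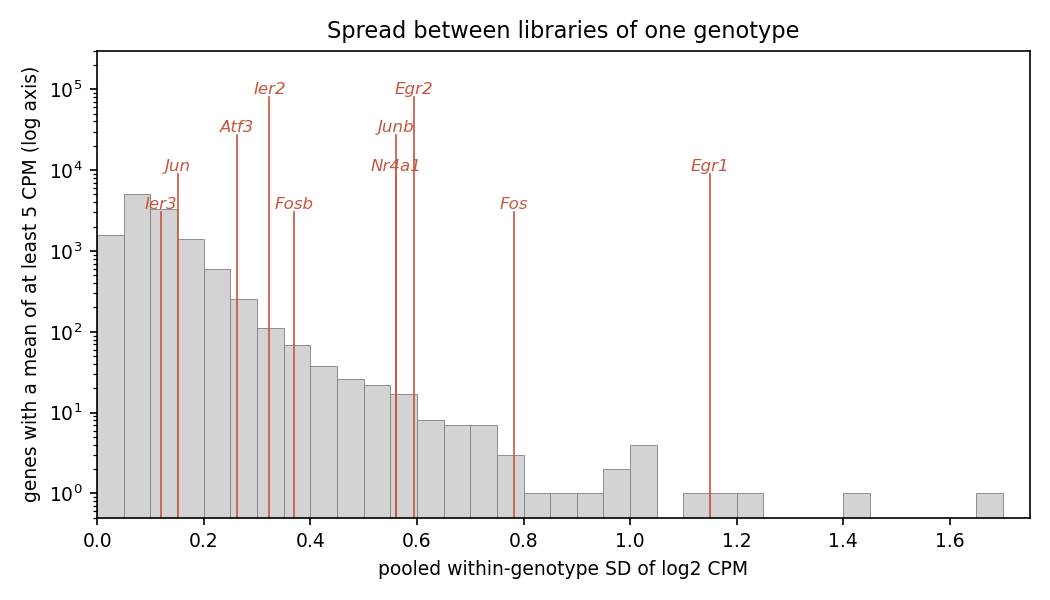
Number of genes (log axis) by pooled within-genotype SD of log2 CPM for the 12494 genes averaging 5 CPM or more (grey, with 1 gene beyond the right edge not drawn), with the 10 immediate early genes marked in red at their own SD. Egr1 (1.15) and Fos (0.782) lie in the far tail, and Ier3 (0.119) and Jun (0.151) near the bulk of genes.

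Most of the 10 genes were highest in the same 2 libraries. The pair WT replicate 1 and ISM1-/- replicate 2 was singled out because these genes were high in it, so the counts that follow describe the pair and test nothing. WT replicate 1 and ISM1-/- replicate 2 were both the highest library of their genotype in 7 of the 10 genes, Fos, Fosb, Junb, Egr1, Egr2, Ier2 and Nr4a1, against 11.1% of all genes tested (2077). WT replicate 1 alone was highest in 7 of 10, against 36.8% of all genes, and ISM1-/- replicate 2 alone in 8 of 10, against 28.7%. None of the 10 was lowest in both libraries, as 11.3% of all genes were. The mean log2 CPM of the 10 genes was 5.55, 4.97 and 4.68 in WT replicates 1, 2 and 3 and 4.80, 5.41 and 4.73 in the ISM1-/- replicates.

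Measured from the mean of its own genotype, Egr1 was higher by 1.46 in WT replicate 1 and by 1.16 in ISM1-/- replicate 2 on the log2 scale. Fos followed with 0.94 and 0.85, and Nr4a1 with 0.77 and 0.44. Egr2 deviated by 0.59 and 0.48, Junb by 0.49 and 0.57, Fosb by 0.44 and 0.29 and Ier2 by 0.28 and 0.36. Egr1 and Fos thus deviated most in both libraries.

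**Figure D4:**
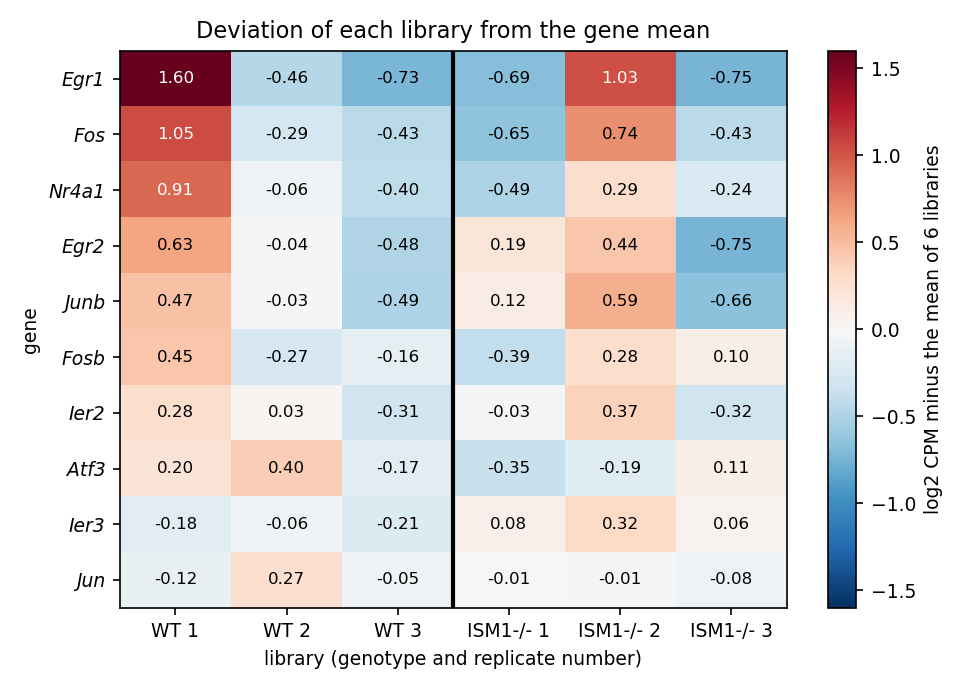
Log2 CPM of each immediate early gene (rows) in each library (columns) minus its mean over the 6 libraries, with red above and blue below that mean and the value printed in each cell. WT 1 and ISM1-/- 2 are above the mean in the upper 7 rows, and Atf3, Ier3 and Jun at the bottom do not share this pattern.

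Some cell type markers were also highest in these libraries. Of 6 alveolar macrophage markers, 3 (50%) were highest in both WT replicate 1 and ISM1-/- replicate 2, namely Chil3, Ear2 and Cd68, beside 11.1% of all genes. So were 3 of 7 lung endothelial markers (42.9%), Kdr, Cdh5 and Car4. Cdh5 deviated from its genotype mean by only 0.031 and 0.055 on the log2 scale, and Car4 by 0.029 and 0.075. Marco, another macrophage marker, deviated by −0.18 and 0.11. The mean log2 CPM of the 6 macrophage markers was 5.51, 5.55 and 5.37 in WT and 5.29, 5.45 and 5.17 in ISM1-/-. The summed macrophage level was 489 to 565 CPM in WT and 429 to 519 CPM in ISM1-/-, and the endothelial one 3563 to 3839 CPM and 3810 to 3996 CPM. The summed level of 9 cardiomyocyte markers was highest in WT replicate 1, at 1779 CPM, beside 594 and 702 CPM in the other WT libraries and 321 to 638 CPM in ISM1-/-. Of 5 erythroid markers the sum was highest in ISM1-/- replicate 2, at 623 CPM, beside 148 and 160 CPM in the other ISM1-/- libraries and 135 to 445 CPM in WT. None of these markers was at 0 in all libraries. Of the 9 cardiomyocyte genes, 1 was called lower in ISM1-/- by edgeR and 0 by DESeq2 or limma, while all 9 had an unadjusted p under 0.05 in edgeR. No erythroid gene was called by any of these tools, with 0 of 5 at an unadjusted p under 0.05. Reads on mitochondrial genes made up 1.70% to 2.20% of each library, with the highest share in WT replicate 1. The part of macrophages, endothelium, heart tissue, blood and RNA content in the levels of the immediate early genes was not tested.

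None of the relatives that pair with the 10 genes or belong to their families passed the test. Of 20 AP-1 and ATF partners tested, 0 were called by edgeR, DESeq2 or limma and 0 had an unadjusted p under 0.05. Fosl2, a FOS relative and the partner with the lowest p, had 88.7 ± 9.15 CPM in WT and 81.2 ± 7.29 CPM in ISM1-/- (SD, n = 3 each, log2 fold change −0.13, adjusted p = 0.546). Of the 5 EGR and NR4A relatives and co-repressors tested, 0 were called by any of the 3 tools and 1 had an unadjusted p under 0.05. That gene, the nuclear receptor Nr4a2, had 11.5 ± 0.742 CPM in WT and 8.61 ± 1.79 CPM in ISM1-/- (SD, n = 3 each, log2 fold change −0.42, adjusted p = 0.182).

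These relatives were not alike in how they followed the libraries. Egr3 had the pattern of Egr2, with 7.50, 4.81 and 3.75 CPM in WT and 6.11, 6.61 and 4.48 CPM in ISM1-/-. Nr4a3 had the opposite one, with 5.70, 8.86 and 10.6 CPM in WT and 9.61, 5.79 and 8.94 CPM in ISM1-/-, lowest where Nr4a1 was highest. Both were picked for description after their values were seen.

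Among 48 other primary response genes tested, which include phosphatases, KLF and ID factors and RNA-binding proteins, 2 rose and 1 fell in ISM1-/-. Over all genes tested, 1.38% were called higher and 3.34% lower. DESeq2 called 7 of the 48 and limma 1, beside 1285 and 684 of all 18689 genes. In edgeR 13 of the 48 had an unadjusted p under 0.05, a share not given here for all genes. The edgeR count was 9 without WT replicate 1, 0 without WT replicate 2 and 10 with the replicate block. Over all genes those fits called 671, 150 and 1105. Id1, an inhibitor of basic helix-loop-helix factors and a BMP target, rose from 51.4 ± 7.25 to 71.5 ± 2.95 CPM (SD, n = 3 each, log2 fold change 0.47, adjusted p = 0.0375). Dusp2, a phosphatase of MAP kinases in immune cells, rose from 3.17 ± 0.138 to 4.64 ± 0.585 CPM (log2 fold change 0.55, adjusted p = 0.0861). Sik1, a salt-inducible kinase that restrains CREB coactivators, fell from 142 ± 15.0 to 106 ± 14.5 CPM (log2 fold change −0.43, adjusted p = 0.0682). In the leave-one-out fits, Id1 was called in 3 of the 6 fits, Sik1 in 2 and Dusp2 in 1. Lymphocyte markers were higher in ISM1-/- as well, with 3 of 6 called. Their summed level was 79.0, 72.9 and 87.0 CPM in WT and 153, 119 and 91.6 CPM in ISM1-/-. Dusp2 had the same order within ISM1-/- (5.22, 4.66 and 4.05 CPM) and the reverse order within WT (3.18, 3.30 and 3.02 CPM). None of the 6 was at 0 in all libraries. The part of these markers and of the neutrophil markers given above in the Dusp2 difference was not tested.

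Of the same 48 genes, 14 (29.2%) were highest in both WT replicate 1 and ISM1-/- replicate 2, beside 11.1% of all genes, and 5 (10.4%) were lowest in both. Zfp36, which promotes decay of immediate early and cytokine RNAs, had 118, 94.5 and 82.0 CPM in WT and 74.9, 107 and 69.0 CPM in ISM1-/-. Cyr61, a matricellular protein gene induced by stretch, had 149, 107 and 67.6 CPM in WT and 87.9, 130 and 102 CPM in ISM1-/-. Per1, a clock gene that also responds to glucocorticoids, went the other way, with 74.8, 199 and 194 CPM in WT and 108, 72.6 and 154 CPM in ISM1-/-. These 3 genes were singled out after their values were seen.

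**Figure D5:**
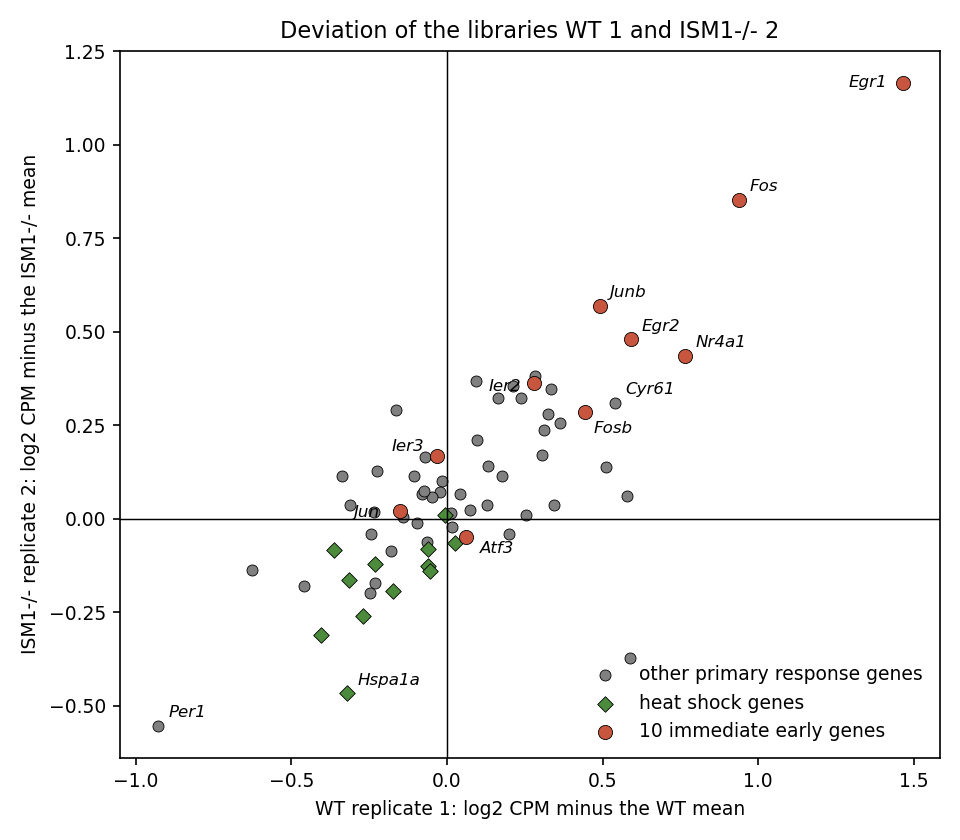
Deviation of log2 CPM from the genotype mean in WT replicate 1 (horizontal axis) and ISM1-/- replicate 2 (vertical axis) for the 10 immediate early genes (red), 48 other primary response genes (grey) and 12 heat shock genes (green diamonds). Egr1 and Fos lie farthest to the upper right, with most other primary response genes near the centre and Per1 at the lower left.

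Heat shock genes, which encode chaperones and are a separate rapid stress response, were low in the libraries where most immediate early genes were high. Of 12 tested, 8 (66.7%) were lowest in both WT replicate 1 and ISM1-/- replicate 2, beside 11.3% of all genes, and 0 were highest in both. Their mean log2 CPM was 6.08, 6.45 and 6.26 in WT replicates 1, 2 and 3 and 6.29, 6.11 and 6.43 in the ISM1-/- replicates. Between genotypes 0 of the 12 were called by edgeR, DESeq2 or limma, with 1 at an unadjusted p under 0.05. That gene was the constitutive chaperone Hspa8, with 668 ± 90.0 CPM in WT and 798 ± 103.7 CPM in ISM1-/- (SD, n = 3 each, log2 fold change 0.26, adjusted p = 0.305).

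Upstream of the immediate early genes, 1 of 14 SRF and CREB regulators and 1 of 19 MAP kinase pathway genes were called, both lower in ISM1-/-. Fhl2, a LIM protein that binds SRF and is abundant in heart, fell from 5.94 ± 2.11 to 3.05 ± 0.352 CPM (SD, n = 3 each, log2 fold change −0.96, adjusted p = 0.0638), and its highest library, with 8.37 CPM, was WT replicate 1, where the cardiomyocyte markers were also highest. Map2k6, the kinase that activates p38, fell from 6.82 ± 0.766 to 4.86 ± 0.348 CPM (log2 fold change −0.49, adjusted p = 0.0830). Fhl2 was called in 3 and Map2k6 in 1 of the 6 fits that left out a library. Without WT replicate 1 Fhl2 was still called, at a log2 fold change of −0.63 (edgeR adjusted p = 0.0942). The part of heart tissue in the Fhl2 difference was not tested.

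Downstream, 1 of 18 delayed targets and inflammatory mediators tested was called. Il1b, the cytokine interleukin-1β, rose from 5.44 ± 0.566 to 8.26 ± 1.87 CPM (SD, n = 3 each, log2 fold change 0.60, adjusted p = 0.0997), just inside the threshold, and the neutrophil markers given above were also higher in ISM1-/-. Their part in the Il1b difference was not tested. Of 13 hypoxia genes, Slc2a1, the glucose transporter GLUT1, fell from 25.9 ± 0.505 to 21.8 ± 1.05 CPM (log2 fold change −0.25, adjusted p = 0.0873). Each was called in 1 of the 6 fits that left out a library. The Il1b call was also lost with library totals alone, with a filter on a mean above 2 CPM, with limma and with the replicate block (adjusted p 0.108 to 0.145).

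The glucocorticoid response list, which records another signal that acts within hours, had 2 genes higher and 2 lower of 12. Of these 12, 4 (33.3%) were lowest in both WT replicate 1 and ISM1-/- replicate 2, beside 11.3% of all genes. Only 1 of them was highest in both. Among the AP-1 and ATF partners, 4 of 20 (20%) were lowest in both. Per2, a clock gene, rose from 39.6 ± 7.26 to 60.7 ± 5.10 CPM (SD, n = 3 each, log2 fold change 0.62, adjusted p = 0.0363), and the metallothionein Mt1 fell from 21.9 ± 0.494 to 15.0 ± 1.30 CPM (log2 fold change −0.55, adjusted p = 0.0163). Zbtb16, a zinc finger repressor, rose by a log2 fold change of 3.05 (adjusted p = 0.0297), with 23.2, 13.1 and 13.2 CPM in WT and 58.3, 66.6 and 285 CPM in ISM1-/-. Its size rests on ISM1-/- replicate 3, without which the log2 fold change was 1.93, and it was 2.44 with limma on log2(FPKM + 1). Cebpd, an acute-phase transcription factor, fell by 0.87 on the log2 scale (adjusted p = 0.0966), but WT replicate 1, at 59.0 CPM, lay within the ISM1-/- range of 52.8 to 61.7 CPM, and the other WT libraries had 130 and 123 CPM. Mt1 was called in all 6 fits that left out a library, Per2 and Zbtb16 in 5 each and Cebpd in 1. The Cebpd call was also lost with DESeq2 (adjusted p = 0.159). In edgeR it was lost with a filter on a mean above 2 CPM (adjusted p = 0.103) and with a correction for GC content (adjusted p = 0.101). Over the 9 lists together, 11 of 161 genes (6.83%) were called, 5 higher and 6 lower, beside the 4.72% of all genes. With limma, Id1, Per2, Zbtb16 and Mt1 kept their calls and the other 7 did not.

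The 10 genes were left out of a ranking of all others by likeness to their mean over the 6 libraries. Of the top 10 in it, 0 were in the lists of relatives and other primary response genes. Among 12484 other genes averaging 5 CPM or more, Olfm2, a secreted olfactomedin protein, ranked first (Pearson r = 0.99, over 6 libraries), with 8.98, 6.93 and 6.33 CPM in WT and 6.77, 8.79 and 6.63 CPM in ISM1-/-. It was followed by Ptgir, the prostacyclin receptor, and C5ar1, the receptor of the complement fragment C5a, and then by Zc3hav1l, Meox2, Trim47, Ctnnbl1, Gm37795, Angptl2 and 2810021J22Rik, down to r = 0.97. The correlations are over libraries of both genotypes, they were picked as the highest of many, and they share the 2 high libraries. Of the 65 genes from the lists of relatives and other primary response genes in this ranking (0.521%), 0 were among the top 50 and 2 among the top 100 (2%).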

How the data were processed

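The labels place 6 mouse lung libraries in 2 groups of 3, WT and ISM1-KO (here ISM1-/-). The authors prepared directional poly-A libraries, used STAR to map paired reads to GRCm38/mm10, and deposited unnormalized counts and FPKM values for each gene, in which counts were divided by library total and gene length. CASAVA is also named in the submitters' processing notes. The counting program, annotation release and strand setting are not given in the sources used here.

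Genes reaching 0.5 CPM in 1 or more libraries were retained, scaled by TMM and compared in edgeR 4.0.16 (R 4.3.3) by the quasi-likelihood test, with Benjamini-Hochberg adjustment over all 18689 genes and a threshold of 0.1. The paper's methods used DESeq2, and the filter and threshold used here are those of its results section. Its methods give stricter ones, a mean above 2 CPM in protein-coding genes and an adjusted p under 0.05 with a 2-fold change. CPM values are TMM-normalized, and log2 fold changes are ISM1-/- over WT. Library totals of 37606133 to 42345042 counts limit precision less than the spread of 3 libraries does. The 6 pairs of libraries within a genotype differed by more than sampling noise. The labels do not say whether replicates were separate animals, while the paper calls them biological replicates. The p-values set the genotype difference against the spread between these samples.

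The 10 genes and all gene lists were chosen with earlier results of these data known. The named genes are the 10, every called gene of a list, the gene of lowest p in a list without a call, the 10 genes most correlated with their mean log2 CPM, and genes that overlap one of them. Egr3, Nr4a3, Zfp36, Cyr61 and Per1, and the markers named singly, fall outside this rule and were picked after their values were seen. Alternatives were DESeq2 1.42.0, limma 3.58.1 on log2(FPKM + 1), other scalings and filters, an adjusted p of 0.05, a replicate block and leaving out each library, and a correction for transcript GC content that was added after seeing the data. The edgeR fit was tested on simulated data. Promoter sequences came from RefSeq (GRCm38.p6).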

Additional observations from a re-analysis of the deposited data

How the results depend on the processing

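The number of immediate early genes called was 1 in the reported fit, 0 with limma on log2(FPKM + 1), 0 at an adjusted p under 0.05 and 0 to 1 when 1 library was left out. It remained 1 under DESeq2, RLE or library-total scaling, the other low-count filters, the GC correction and the replicate block, and the count with a 2-fold change was 0 throughout. Genes called over the 9 lists numbered 11, 27 without a low-count filter, 4 with limma, 4 at an adjusted p under 0.05, 18 with the replicate block and 2 to 18 with 1 library left out. The replicate block calls are reported for completeness, since equal numbers did not deviate together (r = −0.0405, 0.0310 and 0.00101 for numbers 1, 2 and 3). The sign of Ier2 turned with limma (−0.00171) and that of Fosb with the GC correction (0.039). With 1 library left out, log2 fold changes ran from −1.25 to 0.71 for Egr1, −0.81 to 0.38 for Fos, −0.62 to 0.11 for Nr4a1, −0.31 to 0.29 for Egr2, −0.25 to 0.35 for Junb, −0.19 to 0.17 for Ier2, −0.17 to 0.24 for Fosb and −0.15 to 0.052 for Jun. The cause was not tested. Over all genes, 882 calls became 1632 without a filter, 684 with limma, 455 at an adjusted p under 0.05 and 1105 with the replicate block. They became 150 to 1470 with 1 library left out. With 3 libraries per genotype, changes of the size of the Egr1 interval could not be resolved.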
